A study of Arabidopsis thaliana with 74 samples.

Results

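Small RNA was compared between 3 epiHybrids that resembled their epiRIL father, 128F, 330F and 579F, and 5 that lay midway between their parents, 41F, 50F, 102F, 125F and 176F. These 8 are part of the 36 epiHybrids of the series, which also holds their 36 paternal epiRILs and 2 msCol maternal plants, 74 libraries in all. The 8 epiHybrids were chosen by their position at lost windows, so that position is given below as a description with no test. A lost window of a family is a 200-bp window with at least 1 CPM (the count scaled to the total of its library) in both msCol libraries and at most 0.1 times the msCol mean in the epiRIL of that family. A stretch of chromosome 5 that ends at 9.5 Mb, where msCol carries DNA of Landsberg origin, was left out. The position places the epiHybrid (F) between its epiRIL (R), at 0, and the mean of msCol, at 1, and the median over the lost windows of a family was used. The names paternal-like and additive are used for the 3 and the 5.

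Each epiHybrid is the F1 of a male-sterile Columbia mother (msCol, homozygous for ms1) and 1 ddm1-2-derived epiRIL, a line in Columbia background that carries stretches of hypomethylated chromosome inherited from a ddm1-2 founder. The groups share the Columbia background, the aerial rosette and the harvest at 27 d after sowing. Each line is represented by 1 library, made from rosettes pooled over the replicate cultivations, and the maternal plant of each cross is not given in the sources used here, so the mean of both msCol libraries stands for the mother. The 16 libraries of the 8 families held 24515153 to 27084303 counts over non-overlapping CHH windows, so that 1 count equalled 0.0369 to 0.0408 CPM. The counts include reads of all lengths. In 2 families outside the 8, 12 and 568, the libraries labelled epiHybrid and epiRIL stood in the opposite order at the chromosome 5 stretch (positions −0.75 and −0.71), and values that use all families are given with these labels.

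In plants, most small RNAs of transposons and repeats are 24 nt siRNAs. They are made by RNA polymerase IV, RDR2 and DCL3 and are loaded on AGO4, which directs DRM2 to methylate the matching DNA. DDM1 is a chromatin remodeler that maintains methylation of heterochromatin, and stretches inherited from a ddm1 parent can stay hypomethylated and poor in siRNA for generations. In an F1, siRNAs made from the maternal copy can act on the paternal copy and the reverse. A position near 0.5 is the value of a plant in which 1 of the copies makes its parental amount of small RNA and the other copy makes almost none. A position near 0 means that the level of the mother was not kept.

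Repeated sequence was common among windows of chromosomes 2 to 5 that certain fathers of both classes had lost, so examples are printed first. Among the windows lost in the fathers 128, 579, 50 and 176 together, 563 lay on chromosomes 2 to 5, a set chosen after its values were seen. Of these, 450 shared at least one 24-base word with another window of the set, and 415 shared one with a window on another chromosome. The same counts over all windows were not computed. The windows that these fathers lost in the chromosome 1 pericentromere were mostly of unique sequence, with a median of 95.5% unique words. The word present in most windows of the set on chromosomes 2 to 5 without a run of more than 4 equal bases, searched on both strands, was CCGCAAAATTAGGTTTGCAGAAAA. It was found in 9 windows of the set on 3 chromosomes, at 13 places in the 5 chromosomes, and in 0.00202% of all CHH windows. One place per chromosome is shown 5′ to 3′ with 28 bases on either side and the word in capitals (reference TAIR10.1).
chr2:7295052-7295131, minus strand: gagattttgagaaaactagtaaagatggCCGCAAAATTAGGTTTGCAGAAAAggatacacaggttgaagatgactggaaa
chr3:10816602-10816681, plus strand: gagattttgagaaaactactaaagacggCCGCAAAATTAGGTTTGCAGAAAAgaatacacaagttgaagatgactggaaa
chr5:10644575-10644654, plus strand: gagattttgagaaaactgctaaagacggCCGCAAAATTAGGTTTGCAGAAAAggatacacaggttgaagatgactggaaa
The letters around the word are nearly the same at the 3 places, and reads from one of them can match the others.

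The 9 windows with this word were chosen among those that the fathers 128, 579, 50 and 176 had lost. Their summed level was 58.1 CPM in msCol 12 and 52.8 CPM in msCol 16. It was 0.274 CPM in 128R, 0.428 CPM in 579R, 0.571 CPM in 50R and 0.235 CPM in 176R, so all of these fathers had lost it. The epiHybrids had 17.6 CPM (128F), 0.121 CPM (579F), 37.0 CPM (50F) and 48.0 CPM (176F). Of these 4 epiHybrids the paternal-like ones were below the additive ones, and 579F had fewer counts than its father. The choice of the members used these lost windows, so that order is a description. In the other 4 families neither parent had lost the windows, and the epiHybrids, 330F (69.3 CPM) among them, held 66.5 to 76.0 CPM, so that the classes as a whole overlapped.

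**Figure D1:**
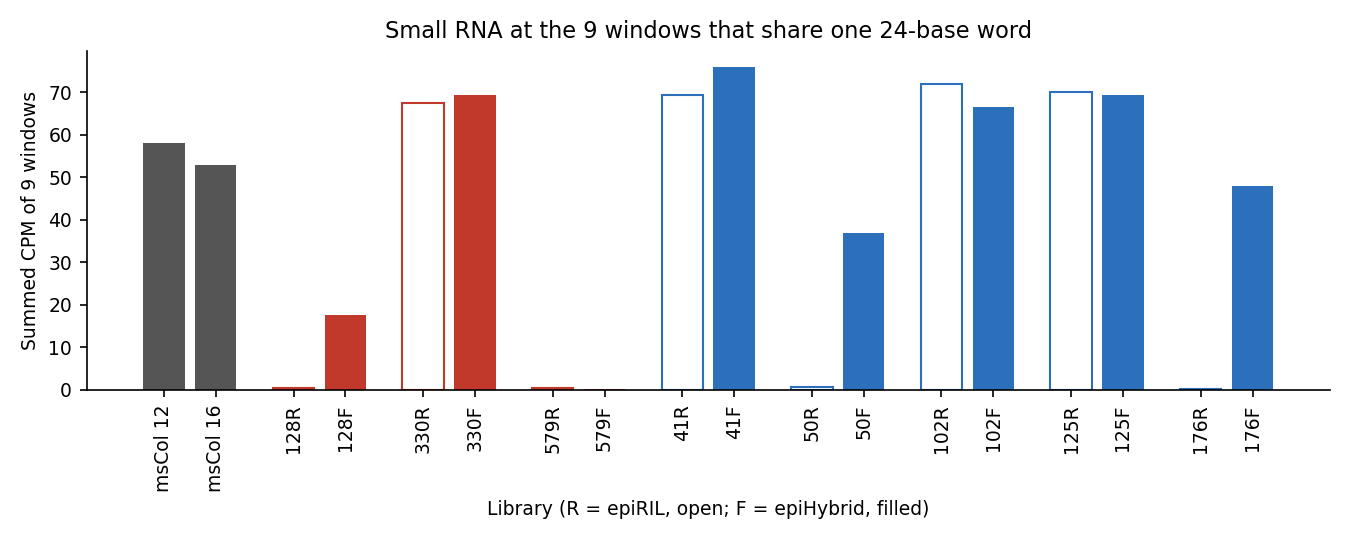
Summed level (CPM, linear axis from 0) of the 9 windows of chromosomes 2 to 5 that share one 24-base word, in both msCol libraries and in the epiRIL (R, open bars) and epiHybrid (F, filled bars) of the 8 families, paternal-like in red and additive in blue. The fathers 128R, 579R, 50R and 176R are all below 0.6 CPM, whereas their epiHybrids range from 0.121 CPM (579F) to 48.0 CPM (176F).

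The other sequences shown are the lost windows of highest msCol level. Of 1036 windows lost in at least 2 of the 3 and at least 2 of the 5 fathers, the 8 with the highest msCol mean, 1 per 50 kb, were taken. Of these, 7 overlapped tRNA genes and 6 of the 7 were tRNA-Arg genes. The first 3 are printed with their CG sites in capitals (TAIR10.1, plus strand).
AT2G36600 (tRNA-Arg), chr2:15346001-15346200: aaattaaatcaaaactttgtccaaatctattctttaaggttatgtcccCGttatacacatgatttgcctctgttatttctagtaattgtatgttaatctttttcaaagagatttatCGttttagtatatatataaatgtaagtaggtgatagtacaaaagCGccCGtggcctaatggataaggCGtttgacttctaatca
AT2G45020 (tRNA-Arg), chr2:18569801-18570000: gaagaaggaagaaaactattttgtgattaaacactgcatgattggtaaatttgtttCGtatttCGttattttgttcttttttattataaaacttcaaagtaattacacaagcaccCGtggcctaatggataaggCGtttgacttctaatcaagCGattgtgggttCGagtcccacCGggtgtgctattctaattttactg
AT3G10035 (tRNA-Arg), chr3:3096201-3096400: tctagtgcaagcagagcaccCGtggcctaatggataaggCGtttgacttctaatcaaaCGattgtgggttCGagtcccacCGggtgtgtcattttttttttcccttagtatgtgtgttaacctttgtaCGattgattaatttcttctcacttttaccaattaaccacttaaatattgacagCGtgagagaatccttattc
The first window shares an unbroken stretch of 38 bases with each of the others, and the windows of AT2G45020 and AT3G10035 share 43 bases, so a read from this part of the tRNA does not tell the genes apart.

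At these abundant tRNA windows the epiHybrids of both classes were near or below their fathers. AT2G36600 had 3728 CPM in msCol 12 and 1465 CPM in msCol 16, so the mothers themselves differed. It had 109 CPM in 128R, 179 CPM in 330R and 164 CPM in 579R, and 69.7 CPM in 128F, 160 CPM in 330F and 107 CPM in 579F. In the additive families the epiRILs had 292 CPM (41R), 43.8 CPM (50R), 236 CPM (102R), 141 CPM (125R) and 531 CPM (176R), and the epiHybrids had 37.7 CPM (41F), 19.5 CPM (50F), 24.7 CPM (102F), 78.1 CPM (125F) and 48.3 CPM (176F). All 8 epiHybrids were below their own epiRIL, and the window was lost in 29 of the 36 epiRILs, 41R and 176R not among them. Over the 8 windows there were 50 pairs of a window and a family that had lost it. The position was below 0.1 in 21 of 22 pairs of the 3 families and in 25 of 28 pairs of the 5. All 4 exceptions lay at the window of AT5G11325, a tRNA-Gly gene (chromosome 5, 3617001 to 3617200), with 279 CPM in msCol 12 and 129 CPM in msCol 16. There 128F and 176F had 0 CPM, as had their fathers, whereas 330F had 40.1 CPM, 41F 104 CPM, 50F 84.2 CPM and 102F 72.1 CPM over fathers with at most 0.0383 CPM.

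Over all lost windows the classes were apart, as the choice of members required. The median position was 0.211 in 128F (1793 lost windows), 0.240 in 330F (797) and 0.187 in 579F (2837). It was 0.471 in 41F (1305 lost windows), 0.518 in 50F (3221), 0.521 in 102F (2222), 0.487 in 125F (668) and 0.482 in 176F (2296). The mean was 0.213 ± 0.0269 (SD, n = 3) and 0.496 ± 0.0225 (SD, n = 5). From the summed CPM of the lost windows in place of the median, the positions were 0.448, 0.143 and 0.198 in 128F, 330F and 579F and 0.174 (41F) to 0.492 (176F) in the 5, so that the classes overlapped. Windows of annotated small and structural RNA held 15.4% to 58.8% of the summed msCol level at the lost windows of the 8 families. Together the 8 fathers had lost 8489 of the 46192 windows with at least 1 CPM in both msCol libraries.

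The 3 were not the lowest of the 36. Another 7 epiHybrids (12F, 568F, 503F, 275F, 219F, 424F and 266F) had a median at or below that of 330F. In families 12 and 568 the labelled libraries stood in the opposite order at the chromosome 5 stretch, so the positions of 12F and 568F are uncertain. The nearest above 330F was 334F at 0.325, and 10 epiHybrids lay between the classes, the highest being 211F at 0.442. A further 7 lay within the range of the 5, and 4 above it up to 0.733 in 79F. The positions of the 36 epiHybrids thus formed a series in which the 2 classes are separate stretches.

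**Figure D2:**
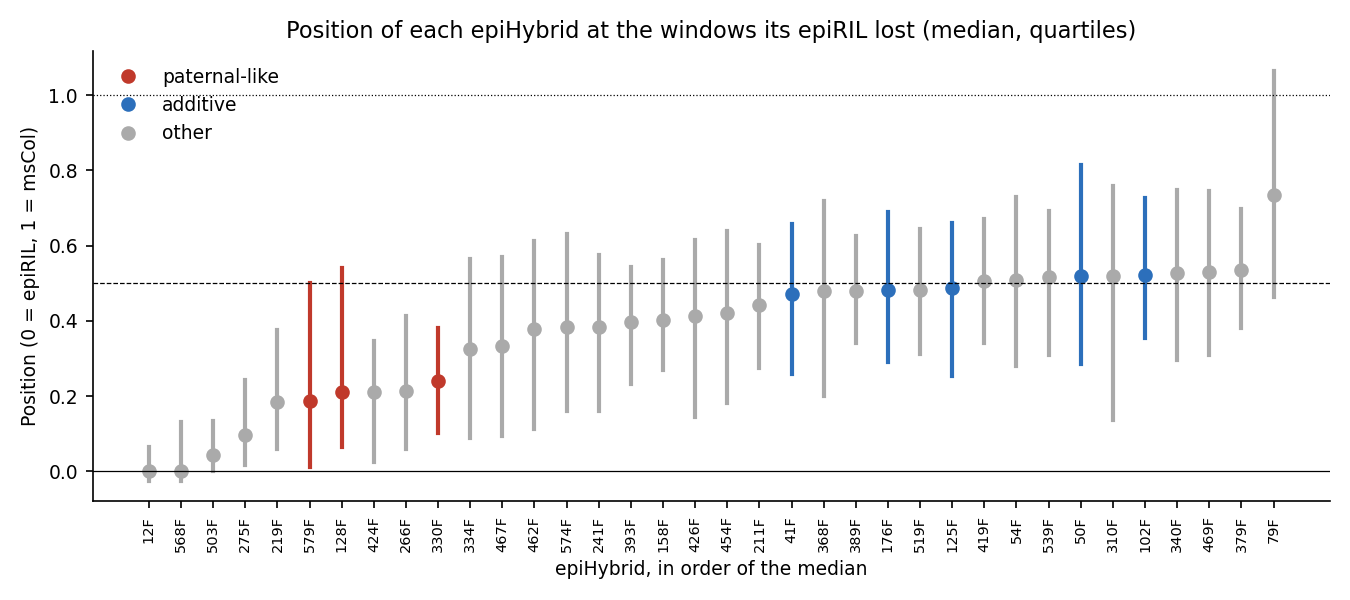
Median position with quartiles (vertical bars) of each of the 36 epiHybrids at the windows that its own epiRIL lost, in order of the median, where 0 is the epiRIL, 1 is msCol and the dashed line marks 0.5. The paternal-like epiHybrids (red) lie at 0.187 to 0.240 with 7 of the other epiHybrids (grey) at or below 0.240, and the additive ones (blue) lie at 0.471 to 0.521. Families 12 and 568 are shown as labelled, though their libraries stood in the opposite order at the chromosome 5 stretch.

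The windows of a paternal-like epiHybrid were not all near the father. In 128F, 32.8% of the lost windows had a position below 0.1 and 28.1% lay from 0.3 to 0.7. In 330F these shares were 24.8% and 30.7%, and in 579F they were 41.0% and 28.8%. In the additive epiHybrids 6.71% to 15.8% of the windows lay below 0.1 and 40.3% to 53.4% from 0.3 to 0.7. No count at all was found at 17.3% of the lost windows in 579F, 9.43% in 128F and 4.14% in 330F, against 1.44% to 4.21% in the 5. The difference between the classes was therefore one of shares of windows, with quartiles of 0.0648 to 0.540 in 128F, 0.101 to 0.381 in 330F and 0.0115 to 0.4996 in 579F.

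The position depended on the chromosome. In 128F and 579F the lost windows of the chromosome 1 pericentromere (within 3 Mb of the centromere midpoint) had medians of 0.533 (512 windows) and 0.506 (890 windows). The additive epiHybrids had 0.260 in 41F (30 windows), 0.351 in 125F (23), 0.603 in 102F (32), 0.560 in 176F (284) and 0.669 in 50F (629) at that place. 128F and 579F were thus within their range, but below 50F and 176F, the additive ones with many lost windows there. On chromosomes 2 to 5 the medians were 0.114 in 128F (1078 windows) and 0.0588 in 579F (1618 windows). There the additive epiHybrids had 0.472 (41F), 0.419 (50F), 0.519 (102F), 0.494 (125F) and 0.439 (176F). In 579F the lowest value was that of the chromosome 5 pericentromere, 0 over 139 windows. 128F and 579F were thus nearer to their fathers on chromosomes 2 to 5 and near the middle in the chromosome 1 pericentromere.

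The additive epiHybrids also had chromosomes of low position. In 41F the median was 0.513 over the 936 lost windows of chromosome 3, but 0.0524 over 87 windows of chromosome 2 and 0.123 over 56 windows of chromosome 4. In 102F it was 0.537 over 1848 windows of chromosome 2 and 0.197 over 151 windows of chromosome 3. In 50F and 176F the values of the single chromosomes ranged from 0.311 (chromosome 2) to 0.739 (chromosome 1) and from 0.387 (chromosome 2) to 0.557 (chromosome 1).

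**Figure D3:**
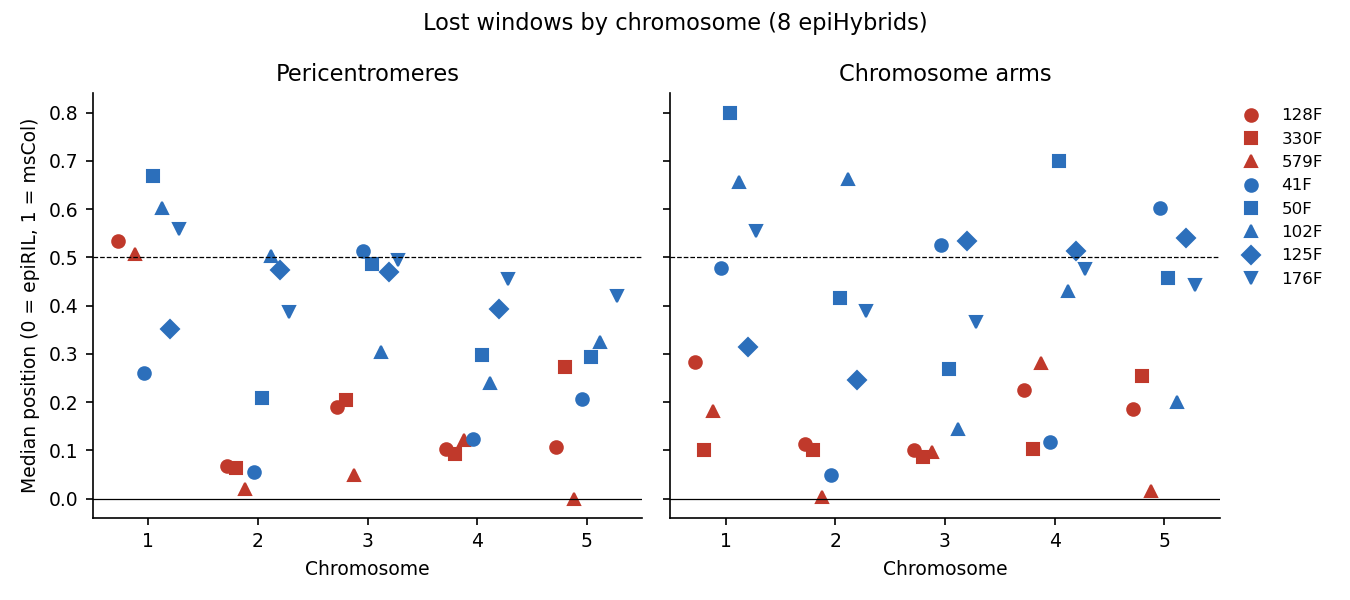
Median position (0 is the epiRIL, 1 is msCol, dashed line at 0.5) of the lost windows of each of the 8 epiHybrids in the pericentromere (left) and arms (right) of each chromosome, shown where at least 20 windows were lost, with paternal-like epiHybrids in red and additive ones in blue. In the chromosome 1 pericentromere 128F (0.533) and 579F (0.506) lie within the range of the additive epiHybrids, below 176F (0.560) and 50F (0.669). In the parts of chromosomes 2 to 5 they lie at 0 (579F, chromosome 5 pericentromere) to 0.281 (579F, chromosome 4 arms).

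Family 330 differed from the other paternal-like families in where its father had lost small RNA. On chromosome 5, 566 of its 797 lost windows were found, with a median position of 0.270, and the 231 windows of chromosomes 1 to 4 had a median of 0.0921. Of 554 windows that 330R lost on chromosome 5 beyond 9.5 Mb, 8 other fathers outside the additive class had lost at least 30%. At the windows shared with 330R, 469F had a position of 0.451 (441 windows), 454F 0.414 (497), 462F 0.391 (459), 334F 0.387 (296), 241F 0.369 (402) and 467F 0.360 (394). 219F and 266F were lower, at 0.175 (187 windows) and 0.176 (227). 330F itself had 0.219 to 0.285 at the same windows, below 6 of these 8 and above 2.

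The same windows could be compared between classes where fathers of both had lost them. Such windows are part of those by which the members were chosen, so the values are a description. 579F and 50F shared 1567 lost windows, which were 55.2% of those of 579R and 48.6% of those of 50R. Their positions there were 0.0763 in 579F and 0.481 in 50F, and 579F was the lower at 85.2% of the windows. 128F and 50F shared 1376 windows, with 0.183 and 0.424, and 128F was the lower at 79.0%. Against 176F the values were 0.153 and 0.461 for 128F (1107 windows) and 0.0298 and 0.446 for 579F (1281 windows). In the other 11 pairs 95 to 265 windows were shared, with positions of 0.0641 to 0.279 in the 3 and 0.0572 to 0.385 in the 5. In 4 of the 15 pairs the paternal-like epiHybrid was the lower at less than 50% of the windows, namely 128F against 41F (44.1%) and 125F (36.6%), and 579F against 41F (49.4%) and 125F (48.8%). Only 36, 26, 27 and 47 of their shared windows, in that order, were lost in fewer than 13 epiRILs. There the medians were 0.133 in 128F and 0.161 in 41F, and 0.774 in 128F and 0.552 in 125F. They were 0.114 in 579F and 0.457 in 41F, and 0.314 in 579F and 0.491 in 125F.

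The 920 windows lost in 128R, 579R, 50R and 176R together showed where these epiHybrids parted. In the chromosome 1 pericentromere (195 windows) the positions were 0.570 in 128F, 0.524 in 579F, 0.870 in 50F and 0.559 in 176F, so that 128F, 579F and 176F were close to each other. In the rest of chromosome 1 (162 windows) they were 0.237, 0.0116, 0.606 and 0.521 in the same order. On chromosomes 2 to 5 (563 windows) they were 0.104 in 128F, 0 in 579F, 0.339 in 50F and 0.412 in 176F. The summed level of the 563 windows was 4957 CPM in msCol 12 and 3102 CPM in msCol 16. It was 64.2 CPM in 128R, 63.03 CPM in 579R, 73.6 CPM in 50R and 141 CPM in 176R, and it reached 584 CPM in 128F, 209 CPM in 579F, 1233 CPM in 50F and 1424 CPM in 176F. All 4 epiHybrids had more than their father in sum, and both paternal-like ones had less than both additive ones. That order is not independent of the choice of the members, which used these windows.

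By the median, the 563 windows were low in 9 of the 36 fathers, 4 of which the choice of the set fixed. The other 5 of the 9 had lost 489 (424R) to 547 (574R) of the windows, and each of the other 27 fathers had lost 9 to 46. In 50R, 79R, 128R, 176R, 424R, 467R, 503R, 574R and 579R their median level was at most 0.0246 times that of msCol, whereas it was 0.947 to 1.45 times in the other 27. The epiHybrids of these 27 fathers had 0.949 to 1.43 times the msCol level. Among the epiHybrids of the 9, 79F had 0.689 times the msCol level, 176F 0.415, 50F 0.354, 128F 0.114, 574F 0.0735, 467F 0.0311, 503F 0.0185, 424F 0.00937 and 579F 0. Both paternal-like members were among 6 low epiHybrids, and both additive members were among 3 with 0.354 or more. The 563 windows are part of the lost windows by which these members were chosen, so their order here follows in part from that choice. Fathers that had kept the windows gave epiHybrids at the msCol level in both classes, as in 330F (1.08 times), 41F (1.20), 102F (1.35) and 125F (1.16).

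**Figure D4:**
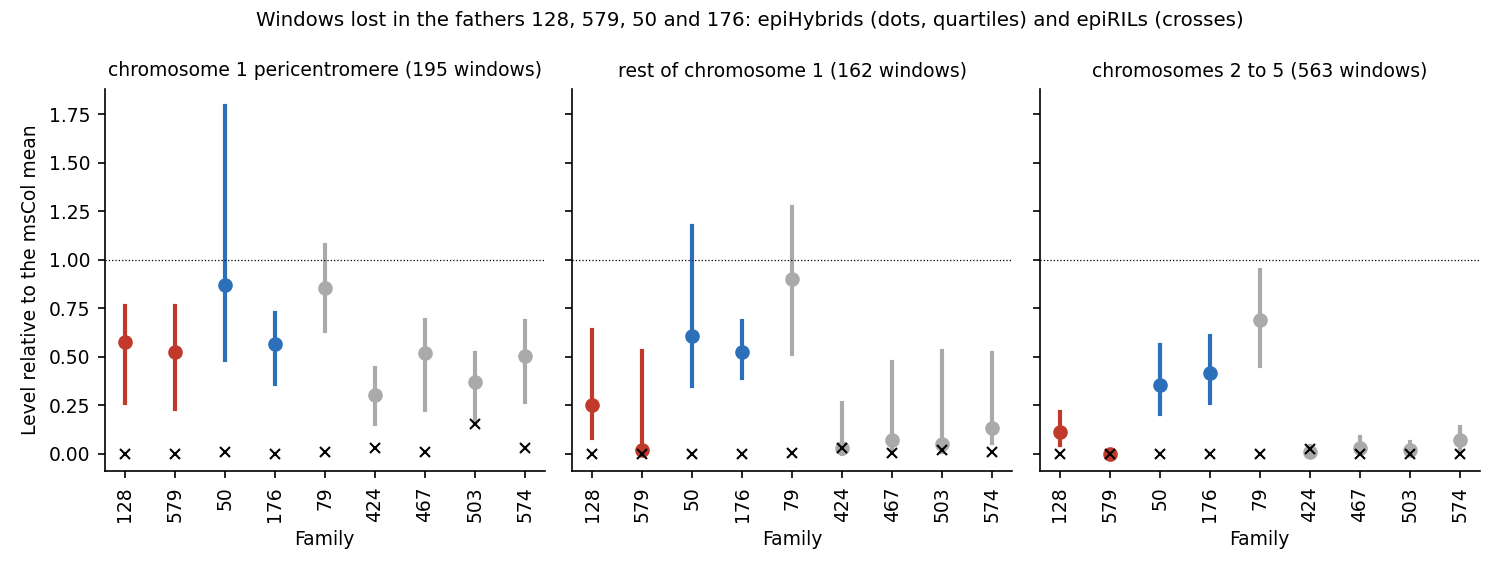
Level relative to the msCol mean of the windows lost in the fathers 128, 579, 50 and 176 together, for the 9 families whose fathers had lost the windows of chromosomes 2 to 5, with epiHybrids as dots with quartiles and epiRIL medians as crosses. In the chromosome 1 pericentromere 128F, 579F and 176F lie at 0.525 to 0.578, and on chromosomes 2 to 5 128F (0.114) and 579F (0) lie below 50F (0.354) and 176F (0.415).

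The 3 sets differed in how unique their sequence is. The share of 24-base words that occur at 1 place only in the 5 chromosomes had a median of 40.1% over the 563 windows, 95.5% over the 195 of the chromosome 1 pericentromere, and 81.4% over all 46192 windows with at least 1 CPM in msCol. The treatment of reads that match several places is not given in the sources used here, and its part in these values was not tested. In the 82 of the 563 windows with at least 90% unique words, the positions were 0.141 in 128F, 0.0193 in 579F, 0.382 in 50F and 0.340 in 176F, the same order of classes. Annotated pseudogenes, which in this annotation include transposon genes, covered 56.1% of the 563 windows and 55.4% of the 195, and 68.9% of the 563 were pericentromeric. Over all lost windows with at least 90% unique words, the medians were 0.456 in 128F, 0.248 in 330F and 0.359 in 579F, against 0.466 to 0.597 in the 5.

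Single windows of the set showed the same order except where noted. At a window near AT2G16310 (chromosome 2, 7066601 to 7066800, 411 bp from the gene), msCol 12 had 56.6 CPM and msCol 16 50.8 CPM, and 128R, 579R, 50R and 176R had 0.195 to 0.449 CPM. The epiHybrids had 1.08 CPM (128F), 0.0402 CPM (579F), 5.50 CPM (50F) and 9.91 CPM (176F). At a window 279 bp from AGL76, a MADS-box gene (chromosome 5, 16051401 to 16051600), with 43.0 CPM and 28.8 CPM in msCol, they had 4.19 CPM, 0.322 CPM, 14.6 CPM and 16.8 CPM in that order. At a window of chromosome 3 (16420801 to 16421000, 45 bp from AT3G44950), lost in 29 of 36 epiRILs, 128F (41.8 CPM) was close to msCol (44.5 and 31.3 CPM) and to 50F (48.9 CPM) and 176F (31.9 CPM), whereas 579F had 9.34 CPM. At a chromosome 1 window of unique words (16844401 to 16844600) all were low, with 0.346 CPM in 128F, 0.0402 CPM in 579F, 1.83 CPM in 50F and 1.03 CPM in 176F against 43.1 and 25.9 CPM in msCol. These windows were taken as the most abundant of each chromosome with at least 90% unique words, a choice made after the set was known.

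Long runs of lost windows showed values of whole loci. The longest run of 128R, 579R and 50R was the same, 39 lost windows on the arm of chromosome 1 from 18962601 to 18971200, a stretch of 8600 bp with the gene AT1G51172 and the pseudogene AT1G51175 and a median of 100% unique words. It summed to 117 CPM in msCol and to 0.627 CPM in 128R, 1.67 CPM in 579R, 1.79 CPM in 50R and 1.17 CPM in 176R. The epiHybrids had 82.9 CPM (128F), 83.6 CPM (579F), 162 CPM (50F) and 70.5 CPM (176F), so that the paternal-like ones lay between the additive ones and far from their fathers. The longest run of 330R, 20 windows on chromosome 5 from 17601401 to 17606000 at the pseudogene AT5G43800, gave the opposite picture. It had 56.2 CPM in msCol, 1.55 CPM in 330R and 3.66 CPM in 330F, against 74.02 to 86.8 CPM in the other 7 epiHybrids, whose fathers had 60.7 to 85.5 CPM.

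The longest runs of the other additive fathers were near the middle in their epiHybrids. The run of 41R on chromosome 1 (7066001 to 7071600, 26 windows at the pseudogene AT1G20390) had 66.1 CPM in msCol, 2.45 CPM in 41R and 40.7 CPM in 41F. That of 125R on chromosome 3 (23108801 to 23116000, 35 windows over the pseudogenes AT3G62475, AT3G62480 and AT3G62490) had a median position of 0.614 in 125F. That of 102R in the chromosome 2 pericentromere (3336401 to 3342600, 29 windows) had one of 0.586, with msCol 12 at 444 CPM and msCol 16 at 142 CPM. That of 176R in the chromosome 1 pericentromere (17255201 to 17265200, 43 windows) had one of 0.650. Of the windows of this run, 128R had lost 41, 579R 39 and 50R 40. The epiHybrids had 75.5 CPM (128F), 68.25 CPM (579F), 93.5 CPM (50F) and 68.33 CPM (176F), so the classes were not apart there.

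Lost windows that were particular to 1 of the 8 fathers gave values of all kinds. At the window of AT3G14855, a tRNA-Cys gene, 579F had 818 CPM, close to msCol (751 and 1133 CPM) and unlike 579R (59.2 CPM). At AT5G43455, a tRNA-Ala gene, 330F had 116 CPM, 330R 0 CPM and msCol 51.1 and 117 CPM. At AT5G13120, which encodes a cyclophilin, 128F had 8.12 CPM, 128R 2.74 CPM and msCol 112 and 72.9 CPM. Positions at the windows of the 5 were 1.03 (41F), −0.09 (50F), 0.175 (102F), 0.116 (125F) and 5.33 (176F), the last at the tRNA-Thr gene AT1G75740. Of these 8 windows chosen by msCol level, 6 overlapped a tRNA gene or lay in a coding gene, and the positions of the classes overlapped.

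How often a window was lost also moved with the position. At windows lost in 13 or more of the 36 epiRILs, both classes were low, with medians of 0.0620 in 128F, 0.0662 in 330F, 0.133 in 579F, 0.0533 in 41F, 0.0920 in 50F, 0.0606 in 102F, 0.213 in 125F and 0.236 in 176F. At windows lost in 5 to 12 epiRILs the medians were 0.210, 0.258 and 0.123 in the 3 and 0.486 to 0.556 in the 5. At windows lost in 1 to 4 epiRILs they were 0.455 in 128F, 0.310 in 330F and 0.308 in 579F, against 0.453 to 0.687 in the 5, so 128F lay at the lower end of the additive range there. Windows that overlapped protein-coding genes had 0.456 in 128F, 0.267 in 330F and 0.344 in 579F, against 0.458 (125F) to 0.593 (50F) in the 5, so that 128F was close to the additive range. Windows that overlapped pseudogenes had 0.215, 0.279 and 0.192 in the 3 and 0.490 (176F) to 0.566 (125F) in the 5.

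The other kinds of window did not separate the classes. At windows gained in the epiRIL (at least 1 CPM there and at most 0.1 times that level in both msCol, outside the chromosome 5 stretch), the position was 0.712 in 128F, 0.512 in 330F and 0.632 in 579F. It was 0.676 in 41F, 0.632 in 50F, 0.703 in 102F, 0.859 in 125F and 0.757 in 176F. The means were 0.619 ± 0.101 (SD, n = 3) and 0.725 ± 0.0876 (SD, n = 5), and the groups overlapped. In both classes most gained windows lay nearer to msCol than to the father, on 353 to 1486 windows per family. These positions use the same libraries as the choice of the members and were not tested.

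The chromosome 5 stretch served as a check of the hybrids. Over the 244 to 351 windows of a family of this stretch that met the rule of gained windows, the position was 0.576 in 128F, 0.380 in 330F and 0.544 in 579F. It was 0.503 in 41F, 0.394 in 50F, 0.566 in 102F, 0.593 in 125F and 0.558 in 176F. The means were 0.49999 ± 0.105 (SD, n = 3) and 0.523 ± 0.0792 (SD, n = 5), so all 8 libraries labelled F held an intermediate amount of the paternal small RNA at this stretch. Where the parents were equal (epiRIL and msCol at nearly the same level), the epiHybrids had 1.08 (128F), 1.03 (330F) and 1.08 (579F) times the mid-parent value, against 1.02 in 125F to 1.31 in 50F. By deviations from the group means over 8690 variable windows, each of the 8 correlated best with its own father among 36. The r was 0.749 (128F), 0.759 (330F) and 0.758 (579F) in the 3 and 0.533 (41F) to 0.654 (50F) in the 5. The classes did not overlap in this value, which is a description across windows that share libraries and was not tested. The members were chosen by nearness to their father in these same libraries, so the value is not independent of that choice.

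**Figure D5:**
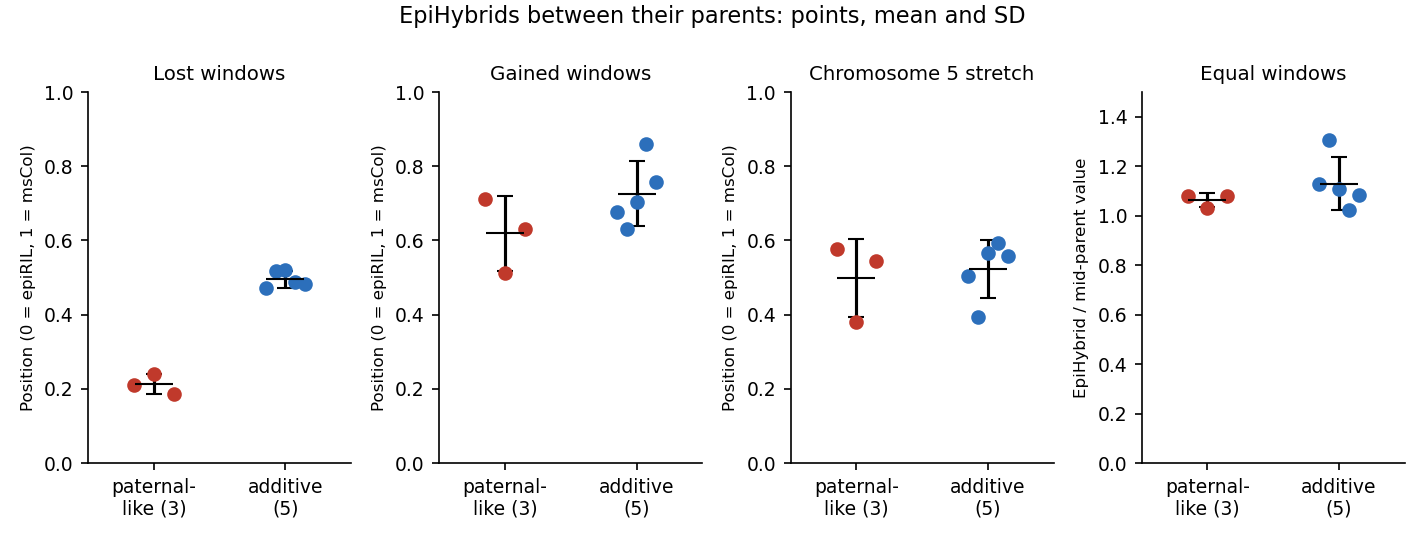
Position of the 3 paternal-like (red) and 5 additive (blue) epiHybrids at lost windows, gained windows and the chromosome 5 stretch, and their ratio to the mid-parent value at windows equal in the parents, with 1 point per epiHybrid and the mean with SD in black. The groups are apart only at the lost windows (means 0.213 and 0.496), by which they were chosen, and overlap in the other 3 panels.

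Of the 4 abundant gained windows that were named, 3 overlapped snoRNA genes and the other a microRNA gene. The sequence of the first is shown because it was gained in a father of each class (CG sites in capitals, TAIR10.1, plus strand).
AT2G30450 (tRNA-Gly) and AT2G08390 (snoRNA), chr2:12975801-12976000: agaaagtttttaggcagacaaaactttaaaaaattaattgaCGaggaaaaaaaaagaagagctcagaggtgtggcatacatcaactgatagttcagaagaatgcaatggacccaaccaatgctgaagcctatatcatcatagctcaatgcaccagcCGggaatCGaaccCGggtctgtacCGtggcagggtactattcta
It had 46.3 CPM in msCol 12, 241 CPM in msCol 16, 3267 CPM in 579R and 2722 CPM in 125R, and 1462 CPM in 579F and 761 CPM in 125F. At the window of MIR854e (chromosome 5, 11942601 to 11942800) 330R had 1980 CPM and 330F 1045 CPM, and 41R had 580 CPM and 41F 174 CPM, against 24.1 and 9.42 CPM in msCol. The other 2 windows named, at a snoRNA gene within AT3G15920 and at AT1G60580 (tRNA-Gly), had positions of 0.0771 (50F) to 0.799 (579F) and of 0.181 (125F) to 0.590 (128F).

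The epiHybrids were then compared window by window with edgeR's quasi-likelihood F test, with all 36 in the fit and Benjamini-Hochberg adjustment at 0.05. Of 175488 windows tested, 1 was called between the 3 and the 5, which is 0.00057%, and 8596 (4.9%) had an unadjusted p under 0.05. Lost windows stayed in the fit, but since the members were chosen by their levels there, the test was read only at the 161180 windows lost in none of the 36 epiRILs. The called window was one of these, and 8215 of them (5.10%) had an unadjusted p under 0.05.

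The called window (chromosome 4, 14890801 to 14891000, 946 bp from AT4G30460) had a fitted log2 difference of 8.76 (edgeR adjusted p = 0.00318) and rested on 1 family. It was not called with the family as a replicate block or with a mean of at least 5 counts, and 0 windows were called in either setting (7121 and 6244 at an unadjusted p under 0.05). Nor was it called from the 8 libraries alone, where 2 other windows were called, 1 of them lost in no epiRIL (8299 at an unadjusted p under 0.05). The called window of the main fit was thus not stable. This window had 6.07 CPM in 330F and 15.9 CPM in 330R and no count in the other 7 epiHybrids, the other 7 fathers or msCol. Without family 128, 10 windows at which no epiRIL had lost small RNA were called, without family 330 also 10, and without family 50, 3. DESeq2's Wald test called 19 windows, 15 of them lost in none of the 36 epiRILs, and did not share the window called by edgeR.

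The fathers of the classes were tested in the same way. Of 173785 windows, 37 (0.0213%) were called, 29 higher and 8 lower in the fathers of the 3, and 7001 (4.03%) had an unadjusted p under 0.05. Of the 37, 15 lay on chromosome 4 from 2.9 to 5 Mb, all higher (log2 difference 3.19 to 7.67, edgeR adjusted p 0.00439 to 0.0435). At 14 of these 15 the level of 579R was more than 4 times that of every other of the 8 fathers, as at AT4G07502, a pseudogene (4301801 to 4302000), with 57.4 CPM in 579R, 0.509 CPM in 128R, 0.232 CPM in 330R and 0.345 to 0.571 CPM in the 5. 579F had 41.2 CPM there. The groups did not overlap at 2 of the 37 windows, a count with no result drawn from it, as the share over all windows tested was not computed. From the 8 libraries of these fathers alone, without the other 28 in the fit, edgeR called 0 windows (6136 at an unadjusted p under 0.05), so every call was lost. Without family 579, 8 windows were called, without family 102, 17, and without family 330, 84.

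Measures of the parents and libraries were compared by 6 exact two-sided permutation tests, 3 against 5, in which the smallest possible p is 0.0357. The number, pericentromeric share and msCol level of the lost windows describe the windows that the choice of members used. Their p-values are thus not independent of that choice. The number of lost windows was 1809 ± 1020 (SD, n = 3) and 1942 ± 983 (SD, n = 5), with p = 0.929 (exact permutation, adjusted 0.929). The pericentromeric share of the lost windows was 66.3% ± 8.20 and 59.4% ± 22.2, with p = 0.893 by the exact test (adjusted 0.929), and it was 20.1% in 125R. The median msCol level of the lost windows was 2.63 ± 0.128 CPM and 2.54 ± 0.135 CPM (exact permutation p = 0.321, adjusted 0.643). The epiHybrid libraries held 25236000 counts in the mean of the 3 and 25979900 in that of the 5 (exact permutation p = 0.143, adjusted 0.429), and the pericentromeric share of counts at windows lost in no epiRIL was 42.1% ± 2.15 and 42.3% ± 0.637 (exact permutation p = 0.893, adjusted 0.929). The share of counts in windows of annotated small and structural RNA was 34.8% ± 0.729 and 33.0% ± 1.49 (exact permutation p = 0.0714, adjusted 0.429), with ranges of 34.3% to 35.7% and 30.6% to 34.4% that overlap. None of the 6 passed, and with so few families this does not show that the classes were equal in them.

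Named genes of small RNA pathways are given as values. Over all windows tested 0.00057% were called, so the absence of a call in so few windows is no result about these genes. The share of all windows at which the classes overlapped was not computed. Of the 6 trans-acting siRNA genes, whose transcripts are cut by microRNA-guided AGO1 or AGO7 and turned into 21 nt siRNAs, none had a called window, and the classes overlapped in all. TAS1A, for example, had 9173 CPM in 128F, 9511 CPM in 330F and 12945 CPM in 579F, and 6048 to 11405 CPM in the 5, and TAS4 had 37.8 to 111 CPM over the 8. The median log2 ratio of class means was 0.20 over the 6 genes (4 higher and 2 lower in the 3) and 0.20 over the 19 microRNA genes (11 higher and 8 lower). For the 2 lists that follow below it was −0.13 over 6 silenced repeat-controlled loci (1 higher and 5 lower) and −0.23 over 11 genes of RNA-directed DNA methylation (4 higher and 7 lower). The log2 difference fitted by edgeR, a different quantity, had a median of −0.00496 over all windows tested. No window of the 19 microRNA genes was called. MIR398B, whose microRNA represses copper/zinc superoxide dismutases, had 31334, 28326 and 41922 CPM in 128F, 330F and 579F, and 34934, 8141, 10287, 31528 and 26755 CPM in 41F, 50F, 102F, 125F and 176F.

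At loci known to be silenced through repeats the classes overlapped too, which was not set against all windows, and a copia element was highest in family 41. FWA, an imprinted homeobox gene silenced by methylated repeats, had 36.5 to 44.8 CPM in the 3 and 39.6 to 55.7 CPM in the 5, and SDC, an F-box gene controlled by tandem repeats, 11.67 to 16.6 CPM and 11.1 to 17.8 CPM. EVD, the ATCOPIA93 retrotransposon at AT5G17125 that is active in some ddm1-derived lines, had 1289 CPM in 41R and 860 CPM in 41F, 76.5 CPM in 579R and 79.3 CPM in 579F, and 8.69 and 5.30 CPM in msCol. The other epiHybrids had 8.89 CPM (128F), 9.41 CPM (330F), 53.5 CPM (50F), 9.56 CPM (102F), 8.68 CPM (125F) and 16.6 CPM (176F). As 50R had 23.5 CPM, 50F was above both of its parents. None of the 6 loci of this list had a called window, against 0.00057% of all windows tested. The 11 genes of RNA-directed DNA methylation, among them NRPD1, RDR2, DCL3 and the CLSY1 to CLSY4 genes that recruit polymerase IV, gave at most 1.248 CPM in the 8 epiHybrids, only 3 of them had a window that could be tested, and none was called.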

How the data were processed

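Small RNA reads of aerial rosettes were aligned by the authors to TAIR10 with ShortStack (default parameters, microRNA search disabled, version not given in the sources used here) and counted in 200-bp windows at 50-bp steps, separately for the windows of context CG, CHG and CHH. The deposited values are raw counts over reads of every length, without scaling. The sources do not say whether the unique molecular identifiers were used, and values cover counting error only where depth is named. No column of values was without a sample. Non-overlapping CHH windows (594835) were scaled to CPM by the total of each library. The deposited windows end where the chromosomes of TAIR10.1 end, and that assembly gave genes and sequences. Windows that overlap microRNA, rRNA, tRNA, snRNA or snoRNA genes were 0.334% of the windows and held 34.0% of the counts.

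Tests used edgeR 4.0.16 in R 4.3.3 (TMM, mean count of 2 or more per window, quasi-likelihood F test), with DESeq2 1.42.0 as an alternative. The edgeR test was also run on simulated counts, and the outcome is not given here. Each line has 1 library, so p-values measure the spread between families. Exact permutation tests were run in SciPy 1.17.1, other values were computed with Python 3.11.15, pandas 2.3.3 and NumPy 2.4.6, and matplotlib 3.10.9 made the figures. Pericentromeres are centromere midpoints (15, 3.6, 13.6, 4 and 11.7 Mb) with 3 Mb on either side. Gene lists were summed over overlapping windows, and class means compared with 0.1 CPM added.

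The 8 families, lists, thresholds and tests were chosen with earlier results of these data known. Windows named are the 8 most abundant in msCol lost in at least 2 fathers of each class, the most abundant private to each father, the called windows lost in no epiRIL (3 in each direction at most), 4 gained in both classes, and the longest run of each father. The set lost in the fathers 128, 579, 50 and 176, its single windows and its shared word were chosen after the data were seen. The family number pairs an epiHybrid with its father. Alternatives covered scaling, summary, msCol plant, context, window phase, thresholds, structural RNA windows, tool, filter, block and each family left out. Methylation data were not used here.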

Additional observations from a re-analysis of the deposited data

Results flagged for a closer look

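In the group of 5, 1 of 10 measures had a value far from the others. The pericentromeric share of the windows lost was 20.1% in 125R, against 64.2% to 73.3% in the other additive fathers. The gap was 0.829 of the range of the group, above the critical ratio of 0.71 for 5 values, which chance exceeds in about 1 of 20 groups. The epiHybrid 125F had a median position of 0.460 at pericentromeric and 0.496 at other lost windows. The group of 3 was too small to be examined in this way.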

How the results depend on the processing

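The difference in mean position at lost windows between the 3 and the 5 was −0.283 from medians and −0.0778 from the ratio of sums, where the classes overlapped. It was −0.223 with TMM, −0.241 with the epiHybrid scaled at windows equal in the parents, −0.196 against msCol 12 alone, −0.350 against msCol 16 alone, −0.318 with a loss limit of 0.05 times and −0.250 with one of 0.2 times. Under settings chosen after seeing the data it was −0.339 without the chromosome 1 pericentromere, −0.167 at windows of at least 90% unique words and −0.254 at windows of at least 5 CPM without structural RNA. The difference at the 563 windows was −0.324 from medians, −0.228 from the ratio of sums and −0.252 against msCol 12 alone (955 windows). The difference in the ratio at equal windows was −0.0659 and became 0.0476 from sums, and that in the number of lost windows was −133 and became 307 with the limit of 0.2 times (exact permutation p = 0.821). The causes were not tested. Of 62 alternatives for the results with no test, 49 moved them by less than the spread between families. For the position at lost windows only 6 did so, and 10 moved it by more. In the chromosome 5 stretch and at equal windows the spread (0.0886 and 0.0878) was larger than the difference itself (−0.0230 and −0.0659), so a small move says little there.

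Leaving out each family in turn gave differences of −0.297 to −0.270 at lost windows, −0.153 to −0.0533 at gained windows, −0.0610 to 0.0368 in the chromosome 5 stretch, −0.0923 to −0.0220 at equal windows and −0.375 to −0.272 at the 563 windows. For the measures tested it gave −647 to 373 lost windows, −2.88 to 11.68 percentage points of pericentromeric lost windows, 0.0391 to 0.165 CPM, −1125290 to −467767 counts, 1.23 to 2.18 percentage points of structural RNA and −1.42 to 0.55 percentage points of pericentromeric counts. The sign of the number of lost windows changed without 330 or 50, that of their pericentromeric share without 125, and that of the pericentromeric counts without 128 or 579.

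Windows called between the epiHybrid classes, counted where no epiRIL had lost small RNA and 1 with edgeR, were 0 with a mean of at least 5 counts, 3 without a filter, 15 with DESeq2 (19 over all windows) and 1 to 10 with a family left out (11 over all windows without 330). From the 8 libraries alone 1 was called (2 over all windows), but not the window of the main fit. With the family as a replicate block, which pairs each epiHybrid with its father, 0 were called (7121 at an unadjusted p under 0.05). Windows called between the fathers, counted over all windows and 37 with edgeR, were 0 from the 8 libraries alone (6136 at an unadjusted p under 0.05), 23 with DESeq2 (19 of them lost in no epiRIL) and 8 to 84 with a family left out (72 of the 84 lost in no epiRIL). Without the families 12 and 568, a setting chosen after seeing the data, 1 and 30 were called. With 1 library per line, depth limits single windows: the median lost window held 0.0382 to 0.116 CPM in the 8 fathers, about the value of 1 to 3 counts.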
